A study of Cricetulus griseus with 4 samples.

Results

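The genes described here are 10 markers of the switch towards glycolysis that cells make when oxygen is short, measured in Chinese hamster CHO-K1 cells treated with a vitamin D metabolite or with compounds selective for one of its activities. They are Hif1a, Slc2a1, Hk2, Pfkfb3, Pgk1, Ldha, Pdk1, Vegfa, Ndrg1 and Ddit4. They were chosen by gene symbol, with earlier results of these data known. All 10 were found in the deposited table, which holds 20754 genes once rows of one gene are joined. CHO-K1 is an established line from hamster ovary. All 4 groups were cultures of this line, treated for 24 hr after a first 24 hr in culture. The treatment medium held 5% lipid-depleted serum, the statin compactin at 50 µM and mevalonate at 50 µM. The additions were DMSO in the control, 25-hydroxyvitamin D3 in the second culture, a compound labelled selective SREBP inhibitor in the third and one labelled selective VDR activator in the fourth. The controls therefore share the sterol-depleted, statin-containing medium, and the labels used here name no low-oxygen culture and no dose. Each treatment has 1 library, so no difference below has a replicate check, no test between treatments was possible, and the intervals cover counting error only.

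Hypoxia-inducible factor 1 (HIF-1) is a dimer of an oxygen-regulated subunit, encoded by Hif1a, and a partner encoded by Arnt. In oxygen, prolyl hydroxylases mark the Hif1a protein for destruction through the von Hippel-Lindau protein, so its control is largely at the protein level. When it accumulates it is known to raise glucose transporters and glycolytic enzymes, the kinase Pdk1 that keeps pyruvate from being oxidised in the mitochondria, the angiogenic factor Vegfa, and the stress genes Ndrg1 and Ddit4. Many of these genes also answer to other factors, among them MYC, p53 and the stress factor ATF4. SREBPs drive sterol and fatty acid synthesis, and VDR is the nuclear vitamin D receptor.

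Total counts lay between 21335614 and 23653262 per library, and 1 CPM (count per 1000000 of the TMM-adjusted library size) stood for 20.4 to 24.4 counts. Genes listed for the line were present but not level: the intermediate filament gene Vim lay between 787 CPM with 25-hydroxyvitamin D3 and 1481 in DMSO, Actb between 2415 and 3386, and Tuba1b between 552 and 881. With 25-hydroxyvitamin D3 the actin gene Actg1 was 2.87-fold above DMSO. How far these differences bear on the members was not tested. Of 9 markers of other lineages in the table, Ptprc, Cd3e, Tyrobp and Adipoq had 0 counts in all 4 libraries (3 counts, the limit that a count of 0 allows, is 0.123 to 0.147 CPM), and only Epcam and Alb reached the minimum, at 1.47 CPM or less. The library of 25-hydroxyvitamin D3 stood apart in one respect: the 13 mitochondrial-encoded mRNAs made up 0.753% of its counts, against 5.25% to 6.81% in the other libraries. How far this bears on the genes below was not tested. Scaling without those 13 genes left every call on the members as it was, which bears on the scaling only. Levels are per culture, so fewer expressing cells and less RNA per cell cannot be told apart.

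With 25-hydroxyvitamin D3, 6 of the 10 genes were at least 2-fold higher than in DMSO and 2 were at least 2-fold lower, where 23.8% of the 11482 genes tested passed 2-fold (11.6% higher, 12.2% lower). A gene was counted when log2(CPM + 1) differed by at least 1 and at least one of the libraries reached 1 CPM and 10 counts. The median difference of the 10 was 1.32 log2, against 0.04 over all genes tested. The members were chosen with earlier results of these data known, so these shares and medians describe them and test nothing. Pdk1, Vegfa, Pfkfb3, Slc2a1, Hk2 and Pgk1 were the higher ones, and Ndrg1 and Ddit4 the lower ones. Hif1a and Ldha were higher by less than 2-fold. The genes thus did not move as one set: markers of glucose use and Vegfa lay on one side, and both stress genes on the other.

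**Figure D1:**
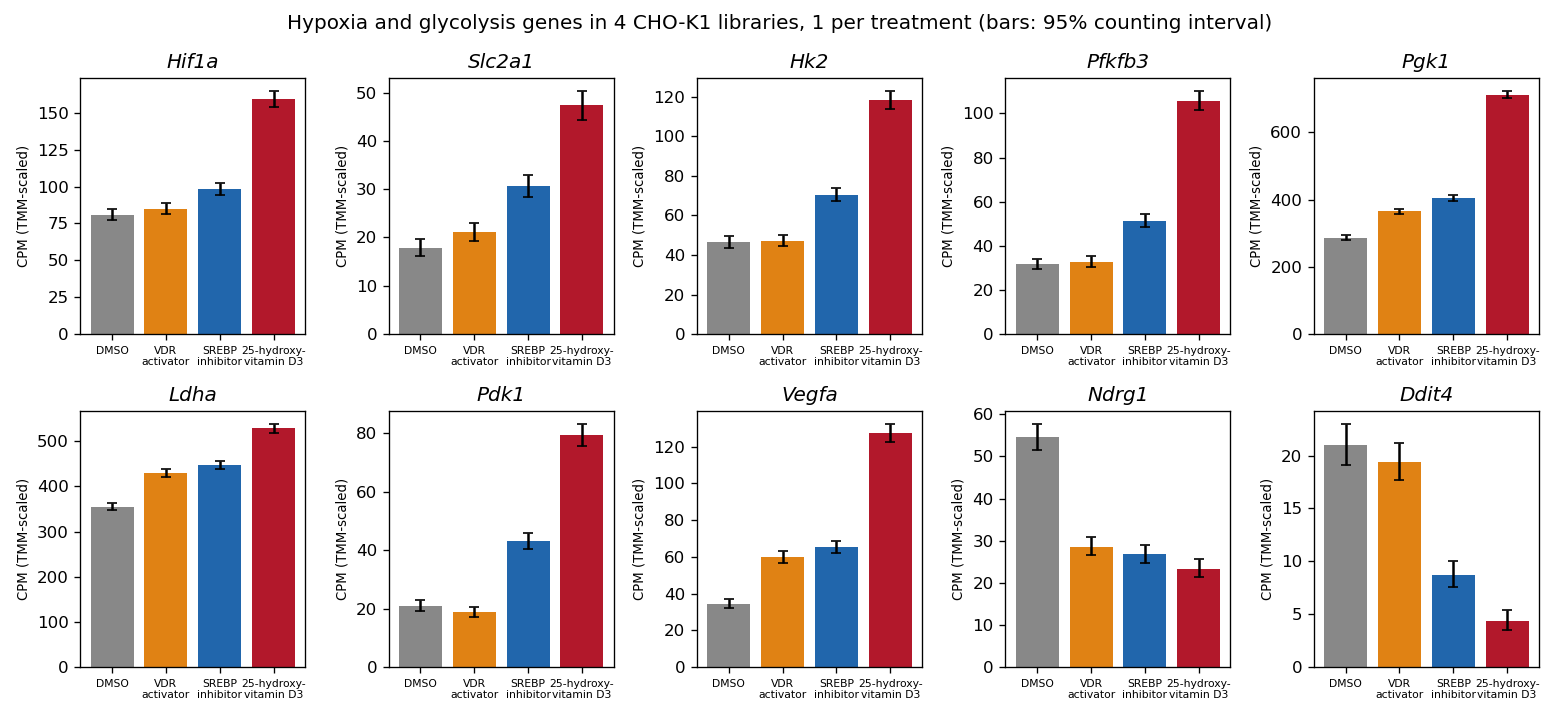
Level of each gene (CPM, linear axis from 0) in the 4 libraries, 1 per treatment, with error bars for the exact 95% Poisson interval of the count. In 8 panels the library of 25-hydroxyvitamin D3 is the highest, and in those of Ndrg1 and Ddit4 it is the lowest.

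The gene of the oxygen-regulated subunit itself, Hif1a, was at 80.8 CPM in DMSO, 84.8 with the VDR activator, 98.6 with the SREBP inhibitor and 159.5 under 25-hydroxyvitamin D3. It was thus close together in the first 2 libraries and clearly highest in the last. The ratio to DMSO was 1.97 with 25-hydroxyvitamin D3 (95% interval 1.86 to 2.09), just short of the limit. It was 1.22 with the SREBP inhibitor (1.15 to 1.30). For the VDR activator it was 1.05, with an interval (0.984 to 1.12) that includes 1.

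Slc2a1 encodes GLUT1, the basal glucose transporter. It was at 17.8 CPM in DMSO, 21.2 with the VDR activator, 30.7 with the SREBP inhibitor and 47.3 under 25-hydroxyvitamin D3, a steady order with no neighbours whose ratio interval held 1. Against DMSO it was 2.66-fold higher with 25-hydroxyvitamin D3 (2.36 to 3.00) and 1.72-fold higher with the SREBP inhibitor (1.52 to 1.95).

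Hk2, the inducible hexokinase that traps glucose in the cell, was at 46.4 CPM in DMSO and 47.1 in the library of the VDR activator, which do not differ beyond counting error, and higher in the other libraries, at 70.5 for the SREBP inhibitor and 118 for 25-hydroxyvitamin D3. The difference from DMSO in the last library was 2.55-fold (2.37 to 2.75). Pfkfb3 makes fructose 2,6-bisphosphate, the strongest activator of phosphofructokinase, and showed the same layout at 31.7, 32.8, 51.3 and 106 CPM in the same order. The ratio of Pfkfb3 to DMSO was 3.34 with 25-hydroxyvitamin D3 (3.06 to 3.64), and it was 1.62 in the library of the SREBP inhibitor (1.47 to 1.78).

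Further down the pathway, Pgk1, which makes the first ATP of glycolysis, was at 287 CPM in DMSO, 366 with the VDR activator, 405 with the SREBP inhibitor and 713 under 25-hydroxyvitamin D3. Here all 3 treated libraries were above DMSO, by 1.28-fold, 1.41-fold and 2.48-fold (2.41 to 2.56). Ldha, which turns pyruvate into lactate, varied least of the 10, at 355, 430, 448 and 529 CPM. Its ratio to DMSO was 1.49 with 25-hydroxyvitamin D3 (1.45 to 1.53). A second row, described as an Ldha-like gene, held 1.03% to 1.28% of the summed reads of both. How reads that match both rows were counted is not known.

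Pdk1 phosphorylates and switches off pyruvate dehydrogenase. Its 4 levels were 18.7 CPM with the VDR activator, 20.9 in DMSO, 43.1 with the SREBP inhibitor and 79.4 under 25-hydroxyvitamin D3. The first 2 lie close together, and the others are clearly higher. With 25-hydroxyvitamin D3 it was 3.80-fold above DMSO (3.42 to 4.22), an interval that overlaps that of Vegfa. With the SREBP inhibitor it was 2.06-fold higher (1.84 to 2.31), so close to the limit that it passes 2-fold with TMM and not with total-count, DESeq2 or FPKM scaling. With the VDR activator it was 1.12-fold lower, with an interval (0.978 to 1.27) that includes 1.

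Vegfa, the secreted growth factor for vessels, was at 34.6 CPM in DMSO, 59.9 with the VDR activator, 65.4 with the SREBP inhibitor and 128 under 25-hydroxyvitamin D3. Both selective compounds therefore gave levels between those of the other libraries. The ratio to DMSO was 3.69 with 25-hydroxyvitamin D3 (3.40 to 4.01). It was 1.89 with the SREBP inhibitor (1.73 to 2.07) and, closely below, 1.73 with the VDR activator (1.58 to 1.89). Among the 8 higher members Vegfa had the largest ratio with the VDR activator, the others lying between a 1.12-fold lower level for Pdk1 and a 1.28-fold higher one for Pgk1.

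Ndrg1, a cytoplasmic protein induced by hypoxia and by differentiation and known to be repressed by MYC, was at 54.6 CPM in DMSO, 28.6 with the VDR activator, 26.7 with the SREBP inhibitor and 23.4 under 25-hydroxyvitamin D3. All 3 treatments gave a lower level, and those of the selective compounds did not differ beyond counting error. The level with 25-hydroxyvitamin D3 was slightly below both, 1.14-fold below the SREBP inhibitor (1.01 to 1.29) and 1.22-fold below the VDR activator (1.09 to 1.38). Against DMSO, Ndrg1 was 2.34-fold lower with 25-hydroxyvitamin D3 (2.10 to 2.61). With the SREBP inhibitor it was 2.04-fold lower (1.85 to 2.26), and in the library of the VDR activator 1.91-fold lower (1.74 to 2.10). The middle value lies at the 2-fold limit and does not reach it with FPKM. Ndrg1 is also the member whose counting is least certain: a second row of the table, described as protein NDRG1, held 13.4% to 17.5% of the reads of both rows, and both rows hold fractional counts. That row was lower too, at 11.6 CPM in DMSO and 3.93, 4.14 and 5.65 CPM with 25-hydroxyvitamin D3, the SREBP inhibitor and the VDR activator.

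Ddit4 encodes REDD1, a brake on the growth kinase complex mTORC1 that hypoxia is known to induce. It was at 21.0 CPM in DMSO, 19.4 with the VDR activator, 8.70 with the SREBP inhibitor and 4.37 under 25-hydroxyvitamin D3. The first 2 did not differ beyond counting error, and the other 2 were each well below them. Ddit4 was 4.81-fold lower with 25-hydroxyvitamin D3 (3.83 to 6.11) and 2.41-fold lower with the SREBP inhibitor (2.04 to 2.86).

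With the SREBP inhibitor 1 of the 10 genes was thus 2-fold higher (Pdk1) and 2 were lower (Ndrg1 and Ddit4), where 3.35% of 11449 genes tested passed in either direction (1.95% higher, 1.4% lower). The median of the 10 was 0.54 log2, against 0.01 over all genes. With the VDR activator no member passed 2-fold, where 0.507% of 11431 genes did (0.184% higher, 0.324% lower). The median was 0.06 against 0.01. Its members farthest from DMSO were Ndrg1, at -0.91 log2, and Vegfa, at 0.77.

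**Figure D2:**
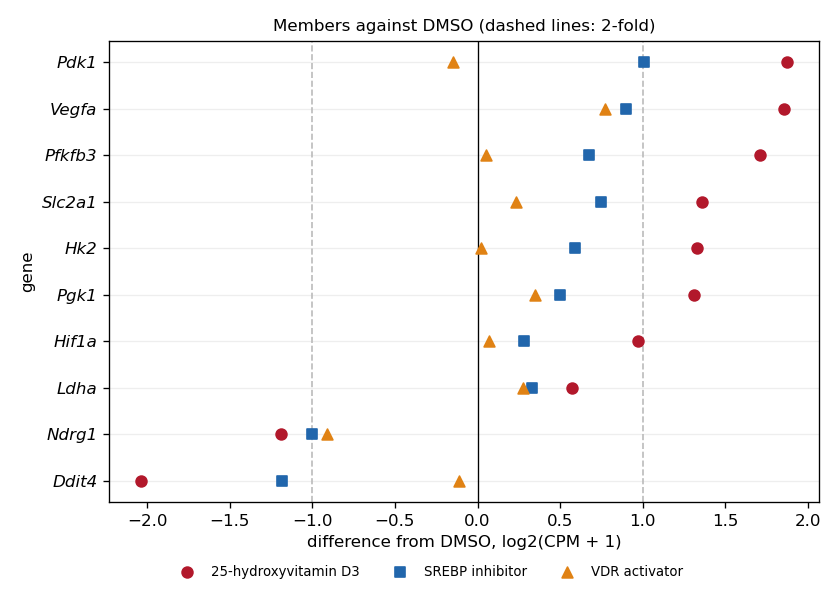
Difference of each gene from DMSO on the log2(CPM + 1) scale, with circles for 25-hydroxyvitamin D3, squares for the SREBP inhibitor and triangles for the VDR activator, and dashed lines at 2-fold. The triangles of Vegfa (0.77) and Ndrg1 (-0.91) lie far from 0, and those of Pdk1 and Ddit4 lie at -0.15 and -0.11.

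The contrast of Pdk1 and Vegfa with Ndrg1 was read within each library, where library scaling cancels. Per length, on the authors' FPKM scale, the level of Pdk1 was 0.126 of that of Ndrg1 in DMSO, 0.215 with the VDR activator, 0.530 with the SREBP inhibitor and 1.12 under 25-hydroxyvitamin D3. Pdk1 was thus the lower of the pair in all libraries except that of 25-hydroxyvitamin D3. The level of Vegfa was 0.339 of that of Ndrg1 in DMSO, and 1.12, 1.31 and 2.93 times as high with the VDR activator, the SREBP inhibitor and 25-hydroxyvitamin D3. Taking the Ndrg1 row alone, Vegfa stood below Ndrg1 in DMSO and above it in each treated library. The second NDRG1 row was at 22.7 FPKM in DMSO, 11.4 with the VDR activator, 8.28 with the SREBP inhibitor and 7.29 under 25-hydroxyvitamin D3. Were these values added to Ndrg1, Vegfa would be above it with 25-hydroxyvitamin D3 only, and Pdk1 in no library. Such a sum holds only if both rows are separate transcripts and not parts of one, which is not known.

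On the log2(CPM + 1) scale, the difference of Pdk1 from DMSO exceeded that of Ndrg1 by 3.07 with 25-hydroxyvitamin D3, where the exact conditional 95% interval of the count ratio was 2.93 to 3.37 log2. The excess was 2.01 with the SREBP inhibitor (1.86 to 2.29) and was smallest, at 0.76, with the VDR activator (0.54 to 1.01). For Vegfa it was 3.04 (2.91 to 3.30), 1.90 (1.76 to 2.14) and 1.68 (1.54 to 1.91). Pdk1 and Vegfa were therefore alike against Ndrg1 in the libraries of 25-hydroxyvitamin D3 and of the SREBP inhibitor, and apart in that of the VDR activator, where their intervals do not overlap. The part of Ndrg1 in this differs as well: with the VDR activator the excess of Pdk1 came from the lower Ndrg1, since Pdk1 itself was at -0.15. These comparisons share the DMSO library.

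**Figure D3:**
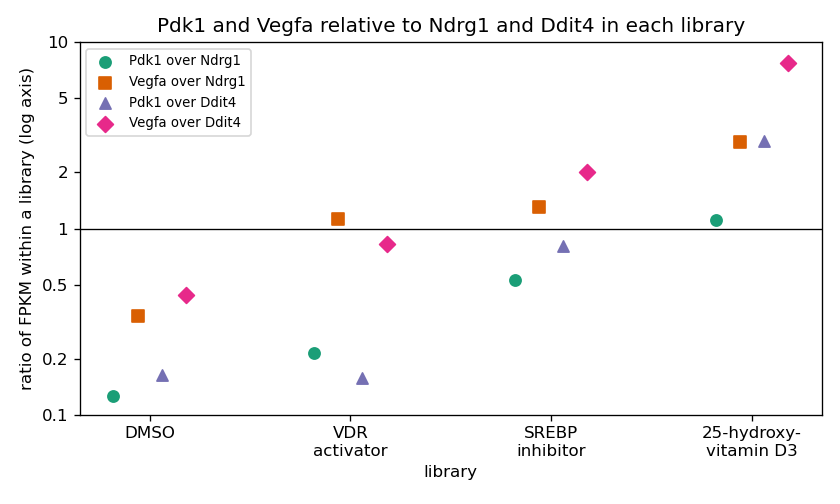
Ratio of FPKM of Pdk1 or Vegfa to that of Ndrg1 or Ddit4 within each library (log axis, line at 1), 1 library per treatment. The second NDRG1 row is left out. In DMSO all 4 ratios lie between 0.126 and 0.439, and with 25-hydroxyvitamin D3 between 1.12 and 7.79.

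The order of the 10 genes per length differed between libraries. In DMSO, Ldha (174 FPKM) and Pgk1 (160.3) led, followed by Ndrg1 (34.6) and Ddit4 (26.8), and Pdk1 was last at 4.35. With 25-hydroxyvitamin D3, Pgk1 (376) was above Ldha (245), Vegfa (40.9) and Hif1a (37.1) came next, and Ndrg1 (14.0) and Ddit4 (5.26) were the last 2, below Pdk1 at 15.6. The second NDRG1 row is left out here. If its FPKM may be added, which is not known, its 7.29 would put Ndrg1 above Pdk1.

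Between 25-hydroxyvitamin D3 and the SREBP inhibitor, 1 member was past 2-fold higher with the former and 0 lower, where 9.2% of 11314 genes passed (3.15% higher, 6.05% lower). This was Pfkfb3, at 2.06-fold (1.92 to 2.22), which does not reach the limit with total-count scaling, FPKM or a pseudocount of 5. Vegfa at 1.95-fold, Pdk1 at 1.84-fold and Pgk1 at 1.76-fold higher, and Ddit4 at 1.99-fold lower (1.55 to 2.59), were short of the limit, and Ndrg1 was only 1.14-fold lower (1.01 to 1.29). Against the VDR activator, 5 members were 2-fold higher and 1 lower, where 18.4% of 11387 genes passed (8.54% higher, 9.9% lower). Pdk1 led at 4.24-fold higher (3.82 to 4.71), followed by Pfkfb3 at 3.22-fold, Hk2 at 2.51-fold, Slc2a1 at 2.24-fold and Vegfa at 2.13-fold, and Ddit4 was 4.44-fold lower (3.54 to 5.64). With FPKM, 3 of the 5 higher members passed. The SREBP inhibitor against the VDR activator had Pdk1 2.30-fold higher (2.06 to 2.58) and Ddit4 2.23-fold lower (1.89 to 2.64), where 1.71% of 11374 genes passed (0.967% higher, 0.739% lower). Vegfa and Ndrg1, by contrast, lay within 1.09-fold and 1.07-fold of each other in those 2 libraries.

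The other genes of glucose use followed the members only in part. Of 19 tested genes from uptake to lactate export, the members among them, 4 were 2-fold higher with 25-hydroxyvitamin D3 and 0 lower, where 11.6% of all genes were higher and 12.2% lower. Their median was 0.50 log2, against 0.04 over all genes. Without the members, 1 of 15 was higher and 0 lower, with a median of 0.25. The one non-member past the limit was Slc16a1, which encodes the lactate and pyruvate transporter MCT1. It was at 105 CPM in DMSO, 134 with the VDR activator, 209 with the SREBP inhibitor and 368 under 25-hydroxyvitamin D3, or 3.49-fold above DMSO in the last (3.33 to 3.65). The enolase gene Eno1, joined from 2 loci, was 1.88-fold higher (1.84 to 1.91), and Gapdh was at 1.17-fold and the pyruvate kinase gene Pkm at 1.09-fold of DMSO. The differences were thus uneven along the pathway. With either selective compound no gene of the 19 passed 2-fold, Slc16a1 coming nearest at 1.98-fold with the SREBP inhibitor.

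**Figure D4:**
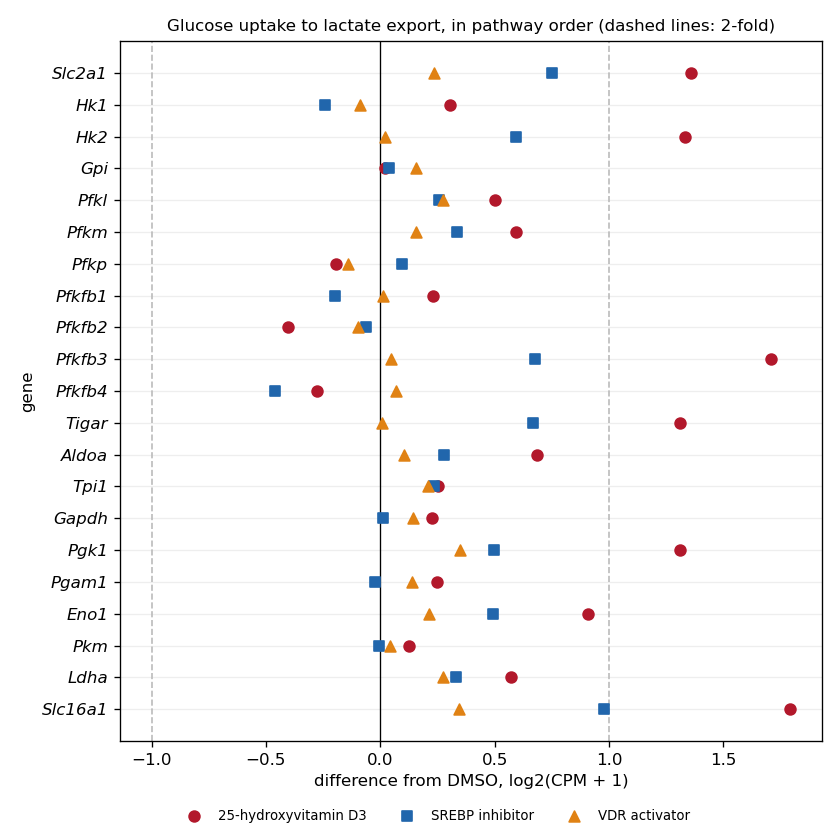
Difference from DMSO, log2(CPM + 1), of genes in the order of the pathway from glucose uptake (top) to lactate export (bottom), with the control enzymes Pfkfb1 to Pfkfb4 and Tigar beside phosphofructokinase. Slc2a1, Hk2, Pfkfb3, Tigar, Pgk1 and Slc16a1 lie right of the 2-fold line with 25-hydroxyvitamin D3, and Gpi, Pkm and Tpi1 lie near 0.

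Isoforms of the control steps differed. Of the 5 genes that set fructose 2,6-bisphosphate, Pfkfb3 and Tigar were 2-fold higher with 25-hydroxyvitamin D3 and none was lower, where 11.6% of all genes were higher. Tigar, a p53-induced phosphatase that removes the activator that Pfkfb3 makes, was at 44.6 CPM in DMSO, 44.9 with the VDR activator, 71.4 with the SREBP inhibitor and 112 under 25-hydroxyvitamin D3, the last 2.52-fold above DMSO (2.33 to 2.72). Enzymes with opposite actions were therefore higher together. Per length, Pfkfb3 made up 30.1% of the summed FPKM of the 4 PFKFB genes in DMSO and 31.1% with the VDR activator. It made up 44.6% with the SREBP inhibitor and 62.1% under 25-hydroxyvitamin D3. Hk2, by contrast, stayed below Hk1 per length in every library. Its share of their summed FPKM was 12.1% in DMSO and 22.1% with 25-hydroxyvitamin D3.

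The kinases that act on pyruvate dehydrogenase differed in direction. Of 14 genes of the pyruvate dehydrogenase complex and its control, Pdk1 was 2-fold higher with 25-hydroxyvitamin D3 and Pdk2 and Pdk3 were 2-fold lower, or 21.4% of the list, near the background. Pdk2, the widely expressed kinase, was at 63.2 CPM in DMSO, 64.0 with the VDR activator, 43.6 with the SREBP inhibitor and 30.0 under 25-hydroxyvitamin D3, 2.11-fold below DMSO (1.91 to 2.32). Pdk3 was at 182, 179, 142 and 74.1 CPM in the same order, 2.45-fold below DMSO in the last (2.31 to 2.60). Pdk1 was the last of the 4 PDK genes per length in DMSO and the first with 25-hydroxyvitamin D3. It held 8.50% of the summed PDK FPKM in DMSO, 7.94% with the VDR activator, 20.6% with the SREBP inhibitor and 41.9% under 25-hydroxyvitamin D3. The sum itself was lower in the last library, at 37.3 FPKM against 51.1 in DMSO.

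Vegfa also had relatives on both sides. Of 7 tested VEGF ligands and receptors, 3 were 2-fold higher with 25-hydroxyvitamin D3 (Vegfa, Vegfb and the co-receptor gene Nrp2) and 2 lower (Figf, which encodes VEGF-D, and the co-receptor gene Nrp1), where 11.6% of all genes were higher and 12.2% lower. Vegfb was at 25.0 CPM in DMSO and at 29.3, 48.9 and 51.5 with the VDR activator, the SREBP inhibitor and 25-hydroxyvitamin D3, the last at 2.06-fold, which total-count scaling puts below the limit. Nrp2 was at 159 CPM in DMSO, 201 with the VDR activator, 336 with the SREBP inhibitor and 597 under 25-hydroxyvitamin D3, and Nrp1 at 229, 176, 209 and 80.9. Nrp1 held 69.1% of the summed neuropilin FPKM in DMSO and 17.3% with 25-hydroxyvitamin D3. Among the ligands, Vegfb stayed above Vegfa per length in every library. The values were 26.4 against 11.8 FPKM in DMSO and 51.3 against 40.9 with 25-hydroxyvitamin D3. Figf was low throughout, at 4.38 CPM in DMSO and 0.147 with 25-hydroxyvitamin D3, the latter from 3 counts (29.7-fold lower, 9.87 to 147). The receptor genes Kdr and Flt4 had at most 1 count in any library.

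Like Ndrg1, its measured relatives were lower with 25-hydroxyvitamin D3. All 3 tested NDRG genes passed 2-fold lower, as did 12.2% of all genes. Ndrg3, named from the description of its row, was at 85.4 CPM in DMSO, 74.5 with the VDR activator, 62.0 with the SREBP inhibitor and 40.0 under 25-hydroxyvitamin D3, and Ndrg4 at 5.94, 6.06, 3.23 and 0.932 CPM. Ndrg1 differed from them with the VDR activator, where it was 1.91-fold lower while Ndrg3 was 1.15-fold lower (1.07 to 1.22) and the interval of Ndrg4 included 1.

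**Figure D5:**
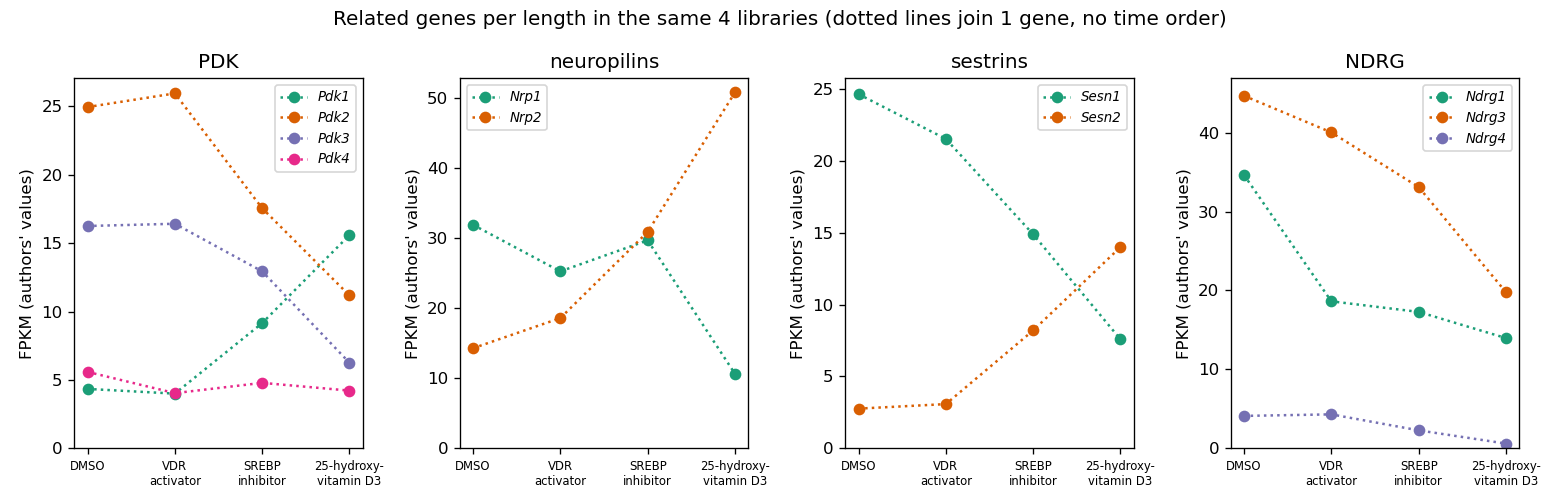
Authors' FPKM of the PDK, neuropilin, sestrin and NDRG genes in the 4 libraries (linear axis from 0). Pdk1, Nrp2 and Sesn2 are the top line of their families with 25-hydroxyvitamin D3, where in DMSO they were the lowest, and all NDRG genes are lowest with 25-hydroxyvitamin D3.

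Around Ddit4, 4 of 10 tested genes of mTORC1 and its brakes passed 2-fold with 25-hydroxyvitamin D3, 2 in each direction, where 11.6% of all genes were higher and 12.2% lower. Sesn2, a stress- and leucine-responsive brake on mTORC1, was at 7.74 CPM in DMSO, 8.39 with the VDR activator, 22.5 with the SREBP inhibitor and 41.5 under 25-hydroxyvitamin D3. Its relative Sesn1, a p53 target, was at 85.9, 73.0, 50.8 and 28.0 CPM in the same order. The sestrins were thus opposed, 5.36-fold higher (4.53 to 6.36) and 3.07-fold lower (2.79 to 3.37) with 25-hydroxyvitamin D3, and Ddit4 lay with Sesn1. Rheb, the GTPase that activates mTORC1, was 2.29-fold higher (2.16 to 2.42). With the SREBP inhibitor Sesn2 was 2.91-fold higher and Ddit4 was the lower one, and with the VDR activator none of the 10 passed.

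Beyond these families, the other HIF targets listed, which leave out the members, showed no common direction. Of 20 tested, 3 were 2-fold higher with 25-hydroxyvitamin D3 and 1 lower, a share near the background, with a median of 0.04 log2 against the same 0.04 over all genes. The higher ones were Hmox1, the heme oxygenase that also answers to NRF2, from 49.1 CPM in DMSO to 1843, the adenylate kinase gene Ak4, from 14.9 to 32.6, and Jmjd6, an oxygen-dependent dioxygenase gene, from 25.0 to 65.3. The lower one was Adm, the vasodilator peptide adrenomedullin, from 3.73 to 0.883 CPM. The mitophagy genes Bnip3 and Bnip3l, often used as HIF markers, were at 33.1 CPM against 46.0 in DMSO and at 170.6 against 225. Over the 20 genes, 11 were above DMSO and 9 below, both of these among the latter. With the SREBP inhibitor Ak4 (2.11-fold) and Hmox1 (3.17-fold) were higher and no gene was lower, and with the VDR activator none passed.

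In the HIF machinery, 2 of 11 tested genes passed 2-fold with 25-hydroxyvitamin D3, both lower. This is 18.2%, near the 12.2% of all genes that were lower and the 23.8% that passed either way. Arnt2, a relative of Arnt that can also pair with HIF subunits, had 28.1 CPM in DMSO, then 17.4 in the library of the SREBP inhibitor, 9.53 in that of the VDR activator and 1.23 in that of 25-hydroxyvitamin D3. It was 22.9-fold lower in the last (15.4 to 35.7) and 2.95-fold lower with the VDR activator (2.53 to 3.44). Cited2, which competes with HIF for the coactivators CBP and p300, was at 75.9, 50.4, 36.2 and 18.6 CPM in the same order, so 4.07-fold and 2.10-fold lower. With the VDR activator these 2 of the 11 were again the only ones past 2-fold, or 18.2%, where 0.324% of all genes tested were lower. Both were thus lower with the VDR activator than with the SREBP inhibitor, whereas Ddit4 was higher. The HIF-2 subunit gene Epas1 was at 33.2 CPM with 25-hydroxyvitamin D3 against 48.8 in DMSO, while Arnt was at 185 against 165 and Vhl at 49.7 against 43.0. Egln3, a prolyl hydroxylase gene that HIF is known to induce, had 0 counts in each library.

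Other factors known to act on these genes differed widely as well. Of 8 tested, which were picked with earlier results known, 5 were 2-fold higher with 25-hydroxyvitamin D3 and 1 lower, against 11.6% and 12.2% of all genes. Myc, a known activator of Ldha and Hk2 and a repressor of Ndrg1, was at 20.3 CPM in DMSO, 42.4 with the VDR activator, 83.5 with the SREBP inhibitor and 172 under 25-hydroxyvitamin D3. A second row described as the MYC protein, LOC100758352, had about the same ratios, at 42.1, 86.1, 167 and 348 CPM. Myc was past 2-fold in all 3 treated libraries, the only gene of the list to be so. With the VDR activator it only just passed the limit, at 1.02 log2. Reads of its 2 rows may be shared: the second held 66.6% to 67.5% of their sum.

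Atf4, whose protein is known to raise Ddit4, Sesn2 and Vegfa, was at 114 CPM in DMSO, 120.3 with the VDR activator, 421 with the SREBP inhibitor and 433 under 25-hydroxyvitamin D3, and Ddit3, which encodes CHOP, at 8.98, 9.45, 67.0 and 110.5. Sesn2 and Vegfa were higher in both of the libraries with high Atf4, and Ddit4 was lower. With the VDR activator Atf4 was within 1.05-fold of DMSO, and Vegfa was 1.73-fold higher. Egr1 was 11.8-fold lower with 25-hydroxyvitamin D3 (9.72 to 14.5), Sp1 was 2.37-fold higher, and Hnf4a, from 1.38 CPM in DMSO, was 6.11-fold higher (4.13 to 9.33) and with the SREBP inhibitor 2.81-fold higher. The p53 gene, Trp53, was at 46.6 CPM in DMSO and, as the highest of the treated libraries, 1.40-fold above it with the SREBP inhibitor. Whether any of these levels bears on the members was not tested.

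Genes with a pattern closest to that of the contrasted members were found by the distance in the 3 log2(CPM + 1) differences from DMSO, over 4 libraries and 8443 genes with a symbol and a mean of at least 10 CPM. Nearest to Pdk1 were Tmem251 (distance 0.21), the cholesterol acyltransferase gene Soat1 (0.23) and Slc45a1 (0.24). Soat1 was at 73.4 CPM in DMSO, 75.8 with the VDR activator, 153 with the SREBP inhibitor and 250.0 under 25-hydroxyvitamin D3. Nearest to Vegfa were the ribonuclease H2 gene Rnaseh2a (0.07), the purine synthesis gene Pfas (0.12) and the meiotic recombination gene Mnd1 (0.17). Nearest to Ndrg1 were Abhd2 (0.24), Cpeb4 (0.41) and the collagen gene Col6a1 (0.46). Abhd2 was at 359 CPM in DMSO and 170.4 to 219 in the treated libraries.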

How the data were processed

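Poly(A) RNA libraries of 4 CHO-K1 cultures, 1 per treatment, were compared; separate cultures beyond these are not described in the labels used here. The deposited table gives estimated counts by gene, fractional in 15.8% to 16.8% of a library's rows, and FPKM, which the authors scaled by gene length and library total, per the file headers. Of the tools, TopHat2 (version 2) and bcl2fastq (version 1) appear in the submitters' processing notes. Not given in the sources used here: the counting tool, its use of strand, the genome build and the annotation. Reads of overlapping antisense genes therefore cannot be told apart, and no coordinates are printed. No sequences are printed.

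The table's 21266 rows were joined to 20754 genes (479 had several loci), and estimated counts were rounded. For 9 list genes the row was found under another name, from its gene identifier or description (RefSeq table of CriGri-PICRH-1.0, names only, 19611 rows matched). Library sizes were TMM-adjusted in edgeR 4.0.16 under R 4.3.3 (factors 0.955 to 1.03). Differences are on log2(CPM + 1), which understates changes of low genes, and folds are ratios of CPM. Intervals of folds are exact Clopper-Pearson intervals, and those of the contrasts exact conditional intervals of the count ratio, in SciPy 1.17.1. Reads without molecular identifiers need not be independent, so these cover counting error at most. Calls were checked on simulated counts that held counting error only, so the check does not cover differences between cultures.

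The members and the 9 gene lists were chosen with earlier results of these data known. All members were named, and of each list the genes past 2-fold against DMSO; other list genes in the text, and the shares within gene families, were chosen after their values were seen. Alternatives were total-count and DESeq2 1.42.0 scaling, FPKM, pseudocounts of 0.1 and 5, minimums of none and 5 CPM, and a 1.5-fold limit, with scaling without mitochondrial genes and the joining of both NDRG1 rows added after the data were seen. One marker gene of the line is not reported here.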

Additional observations from a re-analysis of the deposited data

How the results depend on the processing

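No paired analysis was possible because each treatment has 1 library, and for the same reason no library could be left out. The 10 members' 30 differences from DMSO kept their direction under all 7 alternatives that bear on them. Calls were lost with the SREBP inhibitor only: Pdk1 with total-count, DESeq2 and FPKM scaling, Ndrg1 with FPKM, and Pdk1, Ndrg1 and Ddit4 with a pseudocount of 5. Joining both NDRG1 rows, scaling without mitochondrial genes and a pseudocount of 0.1 changed no call on a member. Against the VDR activator, total-count scaling moved the median of all genes with 25-hydroxyvitamin D3 by -0.11 log2, as did FPKM. Depth limits the low genes, such as Ddit4 (89 counts with 25-hydroxyvitamin D3) and Figf. Of the counts of members, those 2-fold higher with the SREBP inhibitor against DMSO went from 1 to 0 with total-count, DESeq2 and FPKM scaling and with a pseudocount of 5. Those higher with 25-hydroxyvitamin D3 against the SREBP inhibitor went from 1 to 0 with total-count scaling, FPKM and a pseudocount of 5. With FPKM, 1 member in place of 2 was lower with the SREBP inhibitor against DMSO, 3 in place of 5 were higher with 25-hydroxyvitamin D3 against the VDR activator, and the excess of Pdk1 over Ndrg1 with 25-hydroxyvitamin D3 was 2.88 log2. With a pseudocount of 5, 0 members were lower with the SREBP inhibitor against either DMSO or the VDR activator, the excess over Ndrg1 with 25-hydroxyvitamin D3 was 2.77 for Pdk1 and 2.82 for Vegfa, and with the SREBP inhibitor it was 1.80 and 1.74. At a limit of 1.5-fold, 5 members were higher with the SREBP inhibitor, 1 was higher and 1 lower with the VDR activator, 7 were higher and 1 lower with 25-hydroxyvitamin D3 against the SREBP inhibitor, and 2 were higher with the SREBP inhibitor against the VDR activator.

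Over all genes, a pseudocount of 0.1 gave 307 lower with the SREBP inhibitor, 45 higher and 86 lower with the VDR activator, and 180 lower with the SREBP inhibitor against the VDR activator. A pseudocount of 5 gave 830 lower with 25-hydroxyvitamin D3, 143 higher and 93 lower with the SREBP inhibitor, and 5 higher and 14 lower with the VDR activator. Against the SREBP inhibitor it gave 237 higher and 314 lower with 25-hydroxyvitamin D3, against the VDR activator 616 lower, and between the selective compounds 71 higher and 46 lower. At 1.5-fold, 2773 genes were higher and 2709 lower with 25-hydroxyvitamin D3, 908 and 710 with the SREBP inhibitor, and 279 and 219 with the VDR activator. The same limit gave 1564 and 1823 for 25-hydroxyvitamin D3 against the SREBP inhibitor, 2331 and 2401 against the VDR activator, and 573 and 502 between the selective compounds. These counts follow from the settings' construction, since a larger pseudocount shrinks low genes and a smaller limit admits more.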
